A study of Mus musculus with 10 samples.

Results

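The 10 genes described here are mast cell genes and the gene of the tumour antigen P1A, read in CD8 T cells that were sorted out of P511 tumours. P511 is a mouse mastocytoma, which means that its cells descend from mast cells. The members are Trap1a, Kit, Gata2, Cpa3, Cma1, Mcpt4, Tpsb2, Hdc, Fcer1a and Ms4a2, chosen by gene symbol among the 54337 genes of the mouse annotation. The estimated reads of a gene's transcripts were added up in each of 10 libraries. The library named CA-RIT NFAT1 10 served as the level against which the others were set. It was chosen because it had few T cell reads and the highest level of the antigen gene.

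All T cells carried the transgenic receptor TCRP1A, which recognises the P1A antigen, and all were activated for 24 h, transduced with a retrovirus and transferred into Rag1-/- B10D2 mice that bore P511 tumours. In the NFAT5 group (libraries 1, 5 and 8) the virus carried NFAT5, a transcription factor best known from the response to osmotic stress. In the CA-RIT NFAT1 group (libraries 2, 4, 9 and 10) it carried a constitutively active NFAT1 that cannot pair with AP-1, and in the eGFP control group (libraries 3, 6 and 7) it carried eGFP alone. CD8 T cells were sorted from the tumours 7 days after transfer, and the labels give the strain as C57BL/6. The recipients lack Rag1 and so make no mature T or B cells of their own. Whether the libraries of a group came from separate mice was not stated in the labels, and p-values then speak only of the spread among these libraries, which may be technical.

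Mast cells arise from bone marrow progenitors under the control of stem cell factor, which signals through the receptor tyrosine kinase KIT, and of the transcription factor GATA2. They store histamine, made by histidine decarboxylase (Hdc), in granules together with proteases: carboxypeptidase A3 (Cpa3), the chymases (Cma1, Mcpt4) and the tryptases (Tpsb2). Many are set off through the high-affinity IgE receptor, whose alpha chain (Fcer1a) binds IgE and whose beta chain (Ms4a2) amplifies the signal. Trap1a encodes P1A, a protein of the germ line and placenta that mastocytoma cells make again and that cytotoxic T cells recognise.

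Before the members are described, a pair of libraries has to be set apart. CA-RIT NFAT1 10 held 1 read of the CD8 alpha chain gene Cd8a (0.0308 CPM, the reads of a gene scaled to the library's reads on all genes), against 582 to 988 CPM in 8 of the libraries. Reads on Trbc2, a constant segment of the T cell receptor, came to 41.2 CPM, whereas those 8 had 15593 to 25613 CPM. eGFP control 7 held 51112 estimated reads, 0 of them on Cd8a, where the others held 18.8 to 36.6 M. A count of 0 allows up to 3 reads, which is 58.7 CPM in eGFP control 7 and 0.0821 to 0.160 CPM in the others. Of the members, Cma1 and Cpa3 alone exceeded 58.7 CPM in any of the other T cell libraries, so in eGFP control 7 a level like those of the rest was not detectable. "The 8 libraries" below are those without CA-RIT NFAT1 10 and eGFP control 7. Intervals and floors cover counting error only.

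The tumour antigen gene came through in every T cell library of usable depth, at a low level. Trap1a (ENSMUSG00000051257, GRCm38, chromosome X, 139333683 to 139338169, plus strand) had 5.28, 10.2 and 5.55 CPM in NFAT5 libraries 1, 5 and 8. In the CA-RIT NFAT1 group it had 13.8, 5.49 and 6.85 CPM in libraries 2, 4 and 9, and 331 CPM in library 10. The eGFP control libraries 3, 6 and 7 had 24.9, 2.67 and 0 CPM. Among the T cell libraries the highest and the lowest were thus both eGFP controls, 9.32 times apart, and the NFAT5 and CA-RIT NFAT1 libraries lay between them. The lowest value still rested on 66 reads, and 10742 reads fell on the gene in CA-RIT NFAT1 10, where it stood 13.3 times above the highest of the 8 libraries. In bulk RNA such as this, fewer cells of a type and less RNA per cell cannot be told apart.

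The antigen gene's promoter is shown because it differs from those of the granule genes in 1 feature described further on. It covers 250 bases before and 50 after the start of transcription, from RefSeq on GRCm38.p6 (plus strand, chrX:139333433-139333732), and its letters are all in lower case because none of the GATA words searched for occurs in it.
Trap1a promoter: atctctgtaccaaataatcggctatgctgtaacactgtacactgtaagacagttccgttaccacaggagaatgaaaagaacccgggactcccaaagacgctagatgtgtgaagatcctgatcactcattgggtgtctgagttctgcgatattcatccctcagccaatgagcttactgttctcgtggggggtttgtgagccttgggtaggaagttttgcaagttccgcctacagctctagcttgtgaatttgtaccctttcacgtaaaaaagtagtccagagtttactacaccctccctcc

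Kit and Gata2, the receptor and the transcription factor on which mast cells depend, were read in the same 9 libraries. Kit (ENSMUSG00000005672, chromosome 5, 75574916 to 75656722, plus strand) had 32.8, 23.2 and 6.95 CPM in the NFAT5 libraries. It had 33.7, 18.8, 5.60 and 505 CPM in CA-RIT NFAT1 libraries 2, 4, 9 and 10, and 4.41, 7.81 and 0 CPM in the eGFP control libraries. Its level therefore spanned a wide range within the NFAT5 and CA-RIT NFAT1 groups, and eGFP control 3, the highest library for Trap1a, was the lowest of the 8 for Kit. Gata2 (ENSMUSG00000015053, chromosome 6, 88193891 to 88207032, plus strand) had 31.2, 30.0 and 17.0 CPM in the NFAT5 libraries. In the CA-RIT NFAT1 libraries it had 36.4, 18.0, 13.3 and 1044 CPM, and in the eGFP control libraries 6.96, 15.9 and 0 CPM. Its order followed that of Kit in part, with CA-RIT NFAT1 2 highest and eGFP control 3 lowest of the 8 for both genes.

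Cma1 and Cpa3 were the granule proteases with substantial reads, and Cma1 was the member with the highest CPM in each of the 8 libraries. Cpa3 (ENSMUSG00000001865, chromosome 3, 20215620 to 20242181, minus strand) had 37.5, 63.4 and 62.6 CPM in the NFAT5 libraries. It reached 64.4, 26.3, 21.2 and 1859 CPM in the CA-RIT NFAT1 libraries and 66.1, 11.8 and 0 CPM in the eGFP control libraries. The 3 groups overlapped, and eGFP control 6 was again the lowest of the 8. Cma1 (ENSMUSG00000022225, chromosome 14, 55941451 to 55944675, minus strand) had 42.4, 90.2 and 168 CPM in the NFAT5 libraries. The CA-RIT NFAT1 libraries had 71.1, 56.5, 30.4 and 1352 CPM, and the eGFP control libraries 146, 17.1 and 0 CPM. Here NFAT5 8 and eGFP control 3 stood above the other 6 of the 8 libraries. Of the 1060 words of 31 bases in the transcripts of Cma1, 10.6% also occur in Gm48934, an unprocessed pseudogene on the same chromosome (55989063 to 55989685) that had at most 3 reads in any library, and how the software split reads between the pair was not tested. Cpa3, Kit and Gata2 share no such word with another gene, and Trap1a shares 0.784% of its words.

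The promoter of Cpa3 (RefSeq, GRCm38.p6, minus strand, chr3:20242132-20242431) is printed beside that of the antigen gene, with its 1 GATA word in capitals.
Cpa3 promoter: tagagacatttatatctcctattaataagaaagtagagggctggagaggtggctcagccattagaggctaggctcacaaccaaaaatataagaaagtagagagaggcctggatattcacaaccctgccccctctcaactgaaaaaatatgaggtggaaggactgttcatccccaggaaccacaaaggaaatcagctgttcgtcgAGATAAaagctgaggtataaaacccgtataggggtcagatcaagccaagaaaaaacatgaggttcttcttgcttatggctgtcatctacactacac

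The remaining 5 members were at or near 0. Hdc (ENSMUSG00000027360, chromosome 2) had 0.403, 0.853 and 0.699 CPM in the NFAT5 libraries. It had 0.438, 1.28, 1.84 and 0 CPM in the CA-RIT NFAT1 libraries and 0, 1.25 and 0 CPM in the eGFP control libraries. It was thus read at up to 52 reads in T cell libraries and at 0 in the library with the most mast cell RNA, where a count of 0 allows up to 0.0923 CPM. Hdc shares 0.487% of its words of 31 bases, with 2787 other genes. Ms4a2 (ENSMUSG00000024680, chromosome 19) had 4 reads in CA-RIT NFAT1 4 and 0 in the other 9 libraries. It shares 110 words of 31 bases with Ms4a4b, which had up to 119250 reads in a library, so those 4 reads are uncertain. Mcpt4 (ENSMUSG00000061068, chromosome 14) had 93 reads (4.07 CPM) in NFAT5 8, the library with the highest Cma1, and 0 in the other 9. Of the words of Mcpt4, 12.2% also occur in 5 other genes, most of them in Cma2, which had at most 10 reads in a library. How the software split reads between these genes was not tested. Fcer1a (ENSMUSG00000005339, chromosome 1) and Tpsb2 (ENSMUSG00000033825, chromosome 17) had 0 reads in every library. Judged by its markers, CA-RIT NFAT1 10 therefore held the antigen gene, the growth factor receptor, the transcription factor and 2 proteases, and no read of the enzyme for histamine, the IgE-binding chain, the beta chain, the tryptase or Mcpt4.

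Fcer1a had 0 reads in all libraries, as Tpsb2 had, and its promoter (RefSeq, GRCm38.p6, minus strand, chr1:173227180-173227479) is shown as that of a member without reads, its GATA word again in capitals.
Fcer1a promoter: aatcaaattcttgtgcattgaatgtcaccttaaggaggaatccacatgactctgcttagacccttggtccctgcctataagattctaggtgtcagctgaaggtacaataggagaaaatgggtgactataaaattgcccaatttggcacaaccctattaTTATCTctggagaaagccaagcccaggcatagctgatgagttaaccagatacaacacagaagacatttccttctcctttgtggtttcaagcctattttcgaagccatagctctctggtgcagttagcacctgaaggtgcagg

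**Figure D1:**
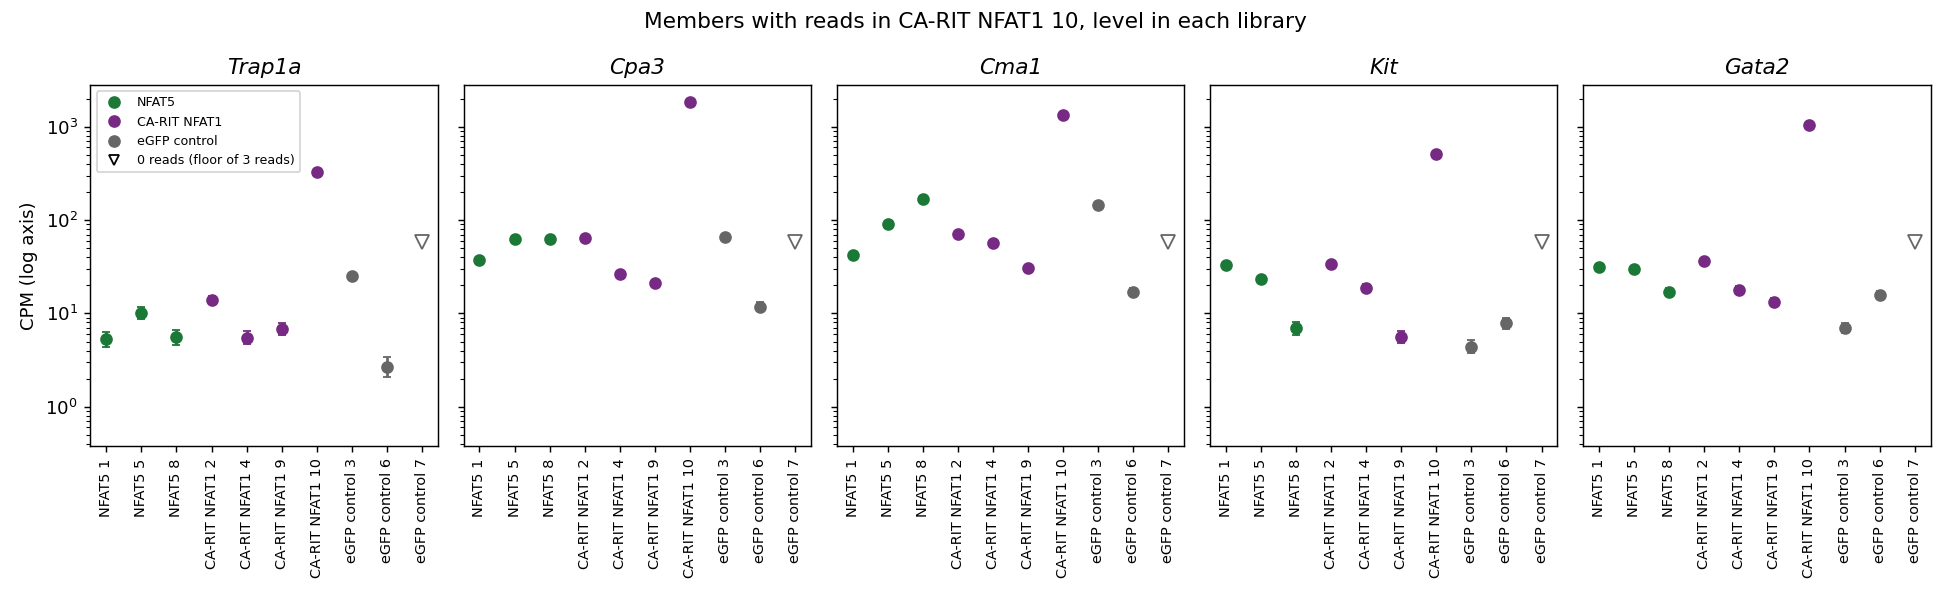
Level in CPM (log axis) of the 5 members with reads in CA-RIT NFAT1 10, in each library, with exact Poisson intervals (95%). Triangles mark 0 reads, drawn at the floor of 3 reads; CA-RIT NFAT1 10 stands 8.06 to 28.7 times above the highest of the 8 libraries in every panel.

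GATA2 and its relative GATA1 bind short words with the core GATA, and the promoter windows of the members were searched for them. The words were AGATAA, its variant AGATAG, the form TGATAA and finally TGATAG, each on both strands, so that the TTATCT printed for Fcer1a is the first of them on the other strand. No other motif was searched for. The 9 member genes found in RefSeq had 11 windows, of which 6 held at least 1 word, each of a different gene, and 29.8% of all 32851 windows of that length did so. Cpa3 and Cma1, which were read in CA-RIT NFAT1 10, held 1 word each. Fcer1a, Hdc and Mcpt4, at 0 there, also held 1 each, and Ms4a2 held 3. Kit, Gata2 and Trap1a held none. Presence of a word thus did not go with presence of reads, and a match is a description of letters and not a binding site.

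**Figure D2:**
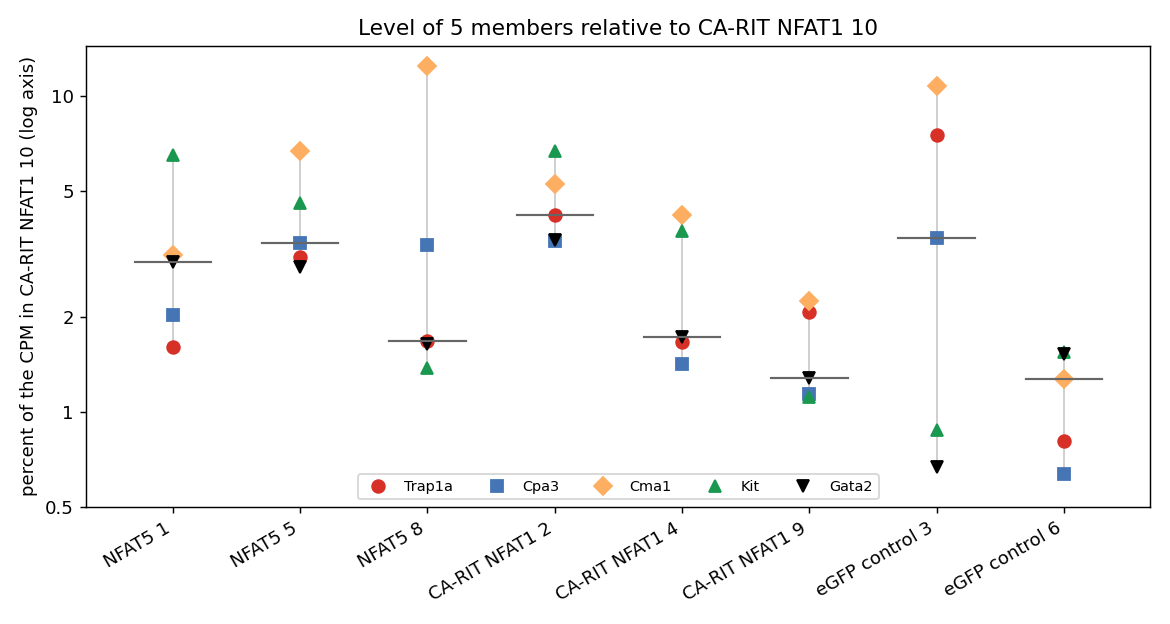
Level of the 5 members in each of the 8 libraries as a percent of their CPM in CA-RIT NFAT1 10 (log axis), with the median of the 5 as a bar and their range as a line. The points of a library lie close together in CA-RIT NFAT1 2 (1.93-fold apart) and far apart in eGFP control 3 (16.2-fold).

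If the members' reads in the T cell libraries were carried over from tumour, which was not tested, their level relative to CA-RIT NFAT1 10 estimates that carry-over. The estimate holds only if the RNA carried over had the composition of that library, which was not tested either. Over the 5 members with reads there, the median was 2.98%, 3.41% and 1.68% in NFAT5 libraries 1, 5 and 8. It was 4.18%, 1.72% and 1.28% in CA-RIT NFAT1 libraries 2, 4 and 9, and 3.55% and 1.27% in eGFP control libraries 3 and 6. As group means this was 2.69 ± 0.903% for NFAT5 (SD, n = 3), 2.39 ± 1.57% for CA-RIT NFAT1 without library 10 (n = 3) and 2.41 ± 1.62% for eGFP control without library 7 (n = 2), so the groups differed by less than the spread within them. Summed over all 10 members, the share of reads was 0.509% in CA-RIT NFAT1 10 and 0.00566% to 0.0265% in the 8 libraries.

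The 5 members did not give 1 common ratio within a library. In eGFP control 3 they ran from 0.666% (Gata2) and 0.872% (Kit) through 3.55% (Cpa3) and 7.53% (Trap1a) to 10.8% (Cma1). NFAT5 8 ran from 1.38% (Kit) to 12.4% (Cma1), a 9.02-fold range. In NFAT5 1 the extremes were other genes, with Trap1a at 1.60% and Kit at 6.49%. The narrowest ranges were 1.93-fold in CA-RIT NFAT1 2 and 2.03-fold in CA-RIT NFAT1 9. Cma1 gave the highest value in 5 of the 8 libraries and Kit in the other 3. An estimate of carry-over therefore depended on the gene: for eGFP control 3 it was 0.666% by Gata2 and 10.8% by Cma1. What sets the genes apart within a library was not tested.

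Per transcript length, on the TPM scale, the order of the members in the T cell libraries was not that of CA-RIT NFAT1 10. In CA-RIT NFAT1 10 Cpa3 was at 1712 TPM and Cma1 at 1605 TPM. Gata2 followed at 670 TPM, Trap1a at 327 TPM and Kit at 138 TPM. The TPM of a gene were summed over all its transcripts, so few reads on a short transcript can weigh heavily. Of the 1712 TPM of Cpa3, 143 lay on a transcript of 398 bases. Its longer transcript had 1569 TPM, which is below Cma1. In all 8 T cell libraries Cma1 stood above Cpa3. The ratio of Cpa3 to Cma1 in TPM was 1.07 in CA-RIT NFAT1 10, and had a median of 0.559 (0.304 to 0.758) in the 8 libraries. Trap1a to Cma1 was likewise higher in CA-RIT NFAT1 10, at 0.204, than in each of the 8 (0.0274 to 0.187). The other 8 ratios lay on either side of their value in CA-RIT NFAT1 10. Gata2 to Cma1 was 0.418 in CA-RIT NFAT1 10 and 0.0367 to 0.541 in the 8, Trap1a to Cpa3 was 0.191 in CA-RIT NFAT1 10 and 0.0900 to 0.408 in the 8, and Kit to Gata2 was 0.205 and 0.146 to 0.699. The widest ratio was that of Trap1a to Kit, 2.38 in CA-RIT NFAT1 10. Its ends over the 8 were 0.460 in NFAT5 1 and 18.8 in eGFP control 3. In NFAT5 1, a Kit transcript of 392 bases that keeps an intron gave 4.28 of 10.6 TPM from 20.7 reads. The same transcript gave 26.5 of 138 TPM in CA-RIT NFAT1 10 and 0 in eGFP control 3. Gata2 transcripts of 423 and 841 bases gave 118 and 122 of 670 TPM in CA-RIT NFAT1 10. Ratios without such short transcripts were not computed.

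Reads on Kit and Gata2 were split over transcripts in proportions that also differed between libraries. Kit-201 and Kit-204 are coding transcripts that differ in 12 bases at the end of exon 9 (GRCm38, plus strand, chr5:75639147-75639158) and also at the 5′ end. Kit-201 carries the bases in capitals, and the surrounding bases are the same.
Kit-201: catttaaagGTAACAACAAAGagcaaatcc
Kit-204: catttaaagagcaaatcc
The transcript without the 12 bases, Kit-204, predominated in CA-RIT NFAT1 10, where Kit-201 took 20.3% of 16106 reads on the pair (95% Wilson interval 19.7% to 20.9%).

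Kit-201 took 21.3% of the pair's reads in NFAT5 1 and 0 of 422 and 0 of 148 reads in NFAT5 libraries 5 and 8, which allow shares of up to 0.902% and 2.53% (Wilson). Its share was 37.8%, 31.8% and 30.1% in CA-RIT NFAT1 libraries 2, 4 and 9. In eGFP control 3 it was 63.3% (55.4% to 70.6%, 150 reads) and in eGFP control 6 25.9% (20.2% to 32.5%). The intervals of NFAT5 5, NFAT5 8, CA-RIT NFAT1 2, CA-RIT NFAT1 4, CA-RIT NFAT1 9 and eGFP control 3 did not include the share in CA-RIT NFAT1 10. Gata2-201, whose first exon differs from that of Gata2-202, took 13.6% of 31216 reads in CA-RIT NFAT1 10 (13.2% to 13.9%). Its share was 17.2%, 5.39% and 8.46% in NFAT5 libraries 1, 5 and 8. It was 0.874% and 4.69% in CA-RIT NFAT1 libraries 2 and 4 and 0 of 335 reads in library 9, and 10.3% and 3.06% in eGFP control libraries 3 and 6. The shares rest on reads that the authors' software assigned to transcripts by estimation, an error that the intervals leave out.

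**Figure D3:**
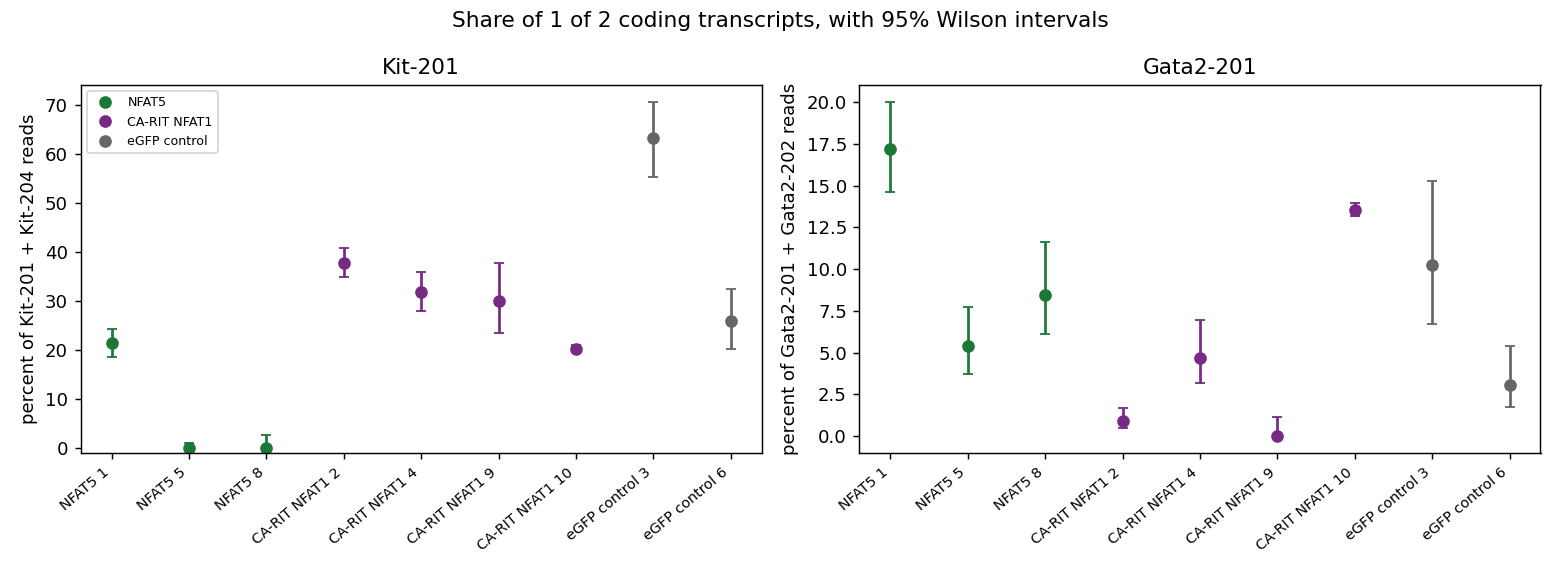
Share of Kit-201 among reads on Kit-201 and Kit-204 (left) and of Gata2-201 among reads on Gata2-201 and Gata2-202 (right), in percent, for 9 libraries, with 95% Wilson intervals. eGFP control 3 has the highest Kit-201 share at 63.3%, and NFAT5 5 and NFAT5 8 have none.

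Of another 30 genes linked with mast cells, 18 were higher in CA-RIT NFAT1 10 than in each of the 8 libraries, 6 had 0 reads in all 10 libraries, and 6 (Srgn, Il3ra, Siglecf, Ltc4s, Alox5 and Mcpt9) were lower there than in at least 1 of the 8. The share of all genes that were higher there than in each of the 8 was not computed. The count of 18 therefore describes this list and no more. Of the 30, those with at least 100 reads in CA-RIT NFAT1 10 numbered 19, the 18 and Srgn. Cd63, a granule membrane protein, was at 1459 CPM in CA-RIT NFAT1 10 and at 21.9 to 215 CPM in the 8. Tph1, the enzyme of peripheral serotonin synthesis, was at 1107 CPM (8.58 to 139), Rab27b, a granule transport GTPase, at 761 CPM (7.85 to 33.3) and Ndst2, needed for the heparin of mast cell granules, at 736 CPM (15.9 to 29.7). Fcer1g, the signalling gamma chain of the IgE receptor, was at 701 CPM against 12.4 to 102 CPM, and its partners Fcer1a and Ms4a2 had no read there. Macrophage genes had reads in that library too, as given below, and which cells the Fcer1g reads came from was not tested. Srgn, the proteoglycan core of granules in mast cells and cytotoxic T cells, was at 711 CPM in CA-RIT NFAT1 10 and 364 to 1234 CPM in the 8, and eGFP control 3 was the library above it.

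Gata1, the transcription factor that mast cells share with red cell precursors, was at 71.7 CPM in CA-RIT NFAT1 10 and at 0 to 4.37 CPM in the 8. Il3ra, a receptor chain for interleukin-3, went the other way, with 2.06 CPM in CA-RIT NFAT1 10 and 9.71 to 15.2 CPM in the 8. The tryptase genes Tpsab1 and Tpsg1, the chymase gene Mcpt1, the receptor genes Mrgprb1 and Mrgprb2, and Enpp3 had 0 reads in all 10 libraries, as Tpsb2 had. In eGFP control 3, the deepest library, 6 of the 19 were at 0 reads (Csf2rb, Gata1, Il1rl1, Slc18a2, Mcpt2 and Tal1), while Cd63 and Fcer1g were there at the top of their range. That library had reads on 13186 genes, against 15276 to 17255 in the rest of the 8 and 12498 in CA-RIT NFAT1 10. Depth alone therefore does not make its zeros sensitive, and the reason for the lower count of genes was not tested. The median of the 19 relative to CA-RIT NFAT1 10 was 3.33%, 4.47% and 3.70% in NFAT5 libraries 1, 5 and 8. It was 4.74%, 3.04% and 2.15% in CA-RIT NFAT1 libraries 2, 4 and 9, and 7.56% and 1.77% in eGFP control libraries 3 and 6. These genes thus also placed CA-RIT NFAT1 9 and eGFP control 6 lowest. At the top the lists differed, since the 19 placed eGFP control 3 highest. The members placed CA-RIT NFAT1 2 highest (4.18%), with eGFP control 3 at 3.55%.

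**Figure D4:**
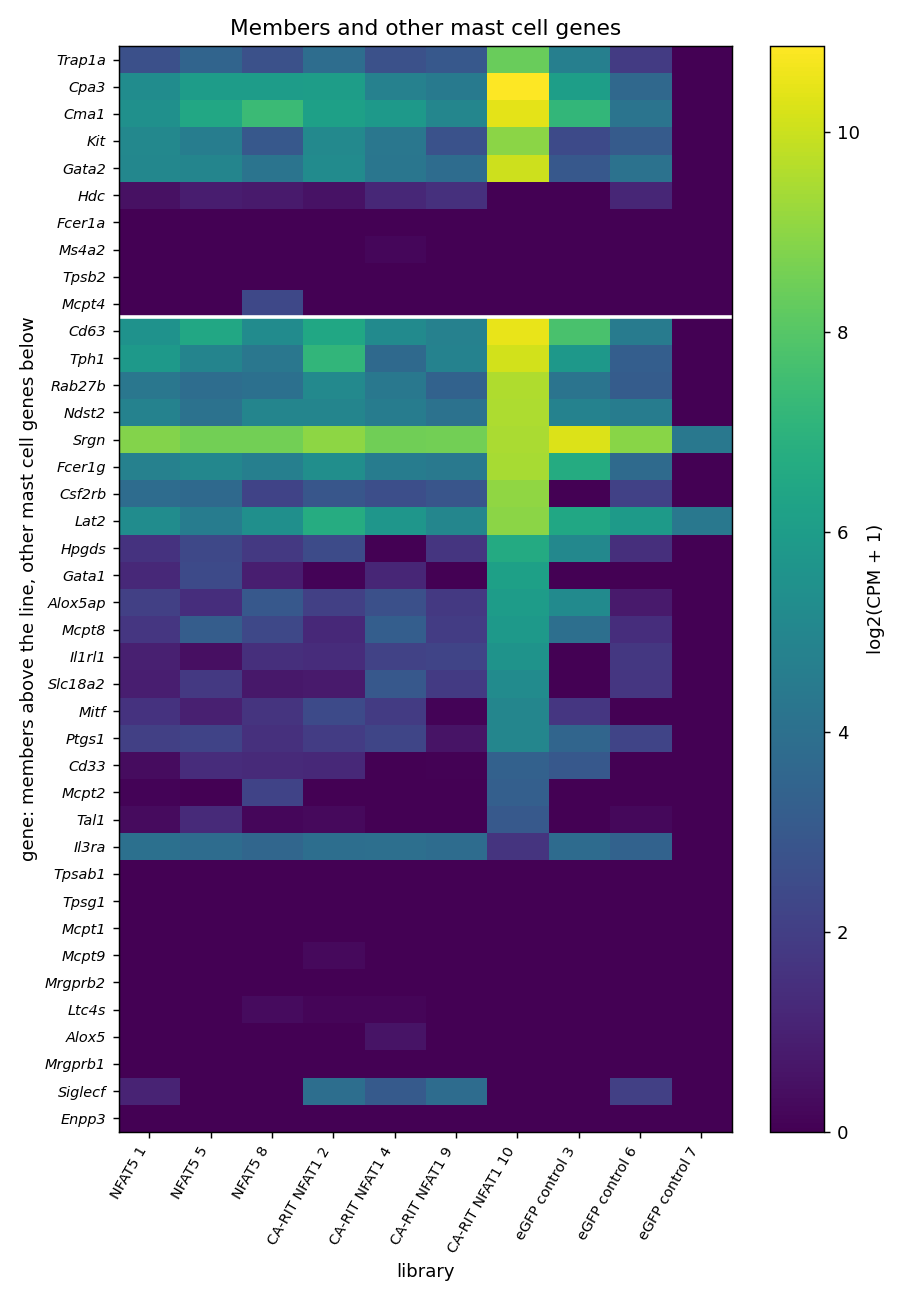
Level, as log2(CPM + 1), of the 10 members (above the white line) and of 30 other mast cell genes (below it) in each library. In the column of CA-RIT NFAT1 10, 5 members and 19 other genes have at least 100 reads each, and 5 members and 10 other genes are at 0.

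CA-RIT NFAT1 10 also had reads on marker genes of other cells, so the level used as a scale may be that of a mixture, which was not tested. The 15 macrophage genes summed to 5674 CPM there, led by Chil3 at 2997 CPM and Arg1 at 1069 CPM. All 15 had reads there, as in NFAT5 1, NFAT5 8 and CA-RIT NFAT1 2. In the T cell libraries their sum was 250 to 409 CPM in the NFAT5 group, 266 to 660 CPM in CA-RIT NFAT1 libraries 2, 4 and 9, and 306 and 362 CPM in eGFP control libraries 3 and 6. The highest gene in these sums was Ccr2 in each NFAT5 library (80.8 to 152 CPM) and in eGFP control 6 (138 CPM). It was Itgam in CA-RIT NFAT1 libraries 2 and 4, Chil3 in CA-RIT NFAT1 9 and Cd68 in eGFP control 3. Which cells these reads came from was not tested. Chil3 relative to CA-RIT NFAT1 10 was 2.46% in eGFP control 3 and 0 in eGFP control 6, where Cpa3 was at 0.636%. All 15 T cell genes also had reads in CA-RIT NFAT1 10, with a sum of 1347 CPM against 33281 to 64557 CPM in the 8 libraries. The highest of them there were Gzmb, the gene of granzyme B, at 907 CPM and Cd247, the T cell receptor zeta chain gene, at 120 CPM, against 1800 to 11470 CPM and 390 to 567 CPM in the 8 libraries. Basophils share many mast cell genes, and their list was led there by Cd200r3 at 59.4 CPM and Mcpt8 at 55.3 CPM. Mcpt8 is also on the list of other mast cell genes. The basophil list summed to 129 CPM there and 73.5 to 143 CPM in the 8 libraries, where Cd9 led it (56.7 to 137 CPM).

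Other lists differed in direction. The 10 neutrophil genes summed to 28.7 CPM in CA-RIT NFAT1 10 and 0 to 4.32 CPM in the 8 libraries; of them only Mpo (14.9 CPM) and Csf3r (13.8 CPM) had reads, and the defining genes S100a8, S100a9 and Ly6g were at 0. The 8 dendritic cell genes summed to 41.6 CPM there, all of it on Ccr7 and with Itgax at 0, and to 109 to 427 CPM in the 8 libraries. In each of those the highest gene was Ccr7 (21.3 to 391 CPM over the 8) or Itgax (23.7 to 174 CPM). The 9 fibroblast and endothelial genes summed to 151 CPM in CA-RIT NFAT1 10 and 8.21 to 62.8 CPM in the 8. Pecam1 (81.3 CPM) and Pdgfrb (69.8 CPM) had reads, with the collagen genes at 0, and all 7 erythroid genes, Hba-a1 and Hba-a2 among them, were at 0 (0 to 0.918 CPM in sum in the 8). The part of each cell type in the members' levels was not tested.

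The genes closest to Trap1a and Cpa3 in pattern over the 8 libraries were sought among the 11778 genes that averaged 1 CPM or more, by the root mean square difference of centred log2(CPM + 1). For Trap1a these were Gm10020 (0.22), Fcer1g (0.25), Il4 (0.28), Gm16845 (0.28) and AW146154 (0.30). Gm10020, a processed pseudogene, and Fcer1g had 194 and 701 CPM in CA-RIT NFAT1 10, whereas Gm16845 was at 0 and AW146154 at 0.121 CPM there. For Cpa3 they were Ctsg (0.32), Gm5855 (0.39), Gm9923 (0.39), Cd200r3 (0.40) and Tcea1-ps1 (0.40). Ctsg encodes cathepsin G, another granule protease, and was at 401 CPM in CA-RIT NFAT1 10 and at 4.41 to 32.9 CPM in the 8 libraries. Cma1 ranked 9 in likeness to Cpa3 and Trap1a ranked 92, while Kit and Gata2 ranked 8487 and 6037, so the proteases followed each other and the receptor and the transcription factor did not follow them. In 8 of the 10 cases the highest library was eGFP control 3, and the points share libraries and depth, so likeness is a description only.

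The first comparison asks whether the members' levels went with NFAT5. Of the 10 members, 6 passed the filter on low counts, the 5 read in CA-RIT NFAT1 10 and Hdc, and Ms4a2, Mcpt4, Fcer1a and Tpsb2 were not tested. Trap1a averaged 7.00 ± 2.75 CPM in the NFAT5 libraries (SD, n = 3) and 9.19 ± 13.7 CPM in the eGFP control libraries (n = 3). Without eGFP control 7, where such a level was not detectable, the eGFP control mean was 13.8 ± 15.7 CPM (n = 2). Over 10 libraries the log2 fold change of Trap1a was -1.10 ± 1.52 (SE), and those of Cpa3, Cma1, Gata2 and Kit were 0.40 ± 1.57, 0.26 ± 1.42, 1.13 ± 1.53 and 1.70 ± 1.49. None of the 6 members tested passed the threshold (edgeR's quasi-likelihood test, Benjamini-Hochberg adjusted p of 1 for each), and neither did any of the 13783 genes (0%), of which 374 had an unadjusted p under 0.05. Without eGFP control 7 and CA-RIT NFAT1 10 the fold changes were -1.13 ± 0.88 for Trap1a, 0.34 ± 0.74 for Cpa3, 0.15 ± 0.86 for Cma1, 1.10 ± 0.56 for Gata2 and 1.68 ± 0.86 for Kit. Again 0 of 6 members and 0 of 14473 genes (0%) were called by edgeR, with 1051 genes at an unadjusted p under 0.05, and the adjusted p of Gata2 and Kit was 0.654. DESeq2 gave no p-value over 10 libraries for Trap1a, Cpa3, Cma1, Gata2 and Kit and did not call Hdc, the 1 member left to test, beside 0.0533% of 13138 genes. Over the 8 libraries it called 0 of 6 members, beside 0.768% of 13276 genes. The fold change of Hdc was 0.05 ± 1.95 over 10 libraries (-0.014 with RLE scaling) and 0.02 ± 1.67 over 8.

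Gata2 was the 1 member of the 5 whose NFAT5 libraries did not overlap the eGFP control libraries over 8 libraries, at 17.0 to 31.2 CPM with NFAT5 against 6.96 and 15.9 CPM with eGFP. Of 11778 genes, 23.5% did not overlap in that comparison. The fold changes of the antigen and the proteases hung on which control was in the fit. With eGFP control 6 as the 1 control of the 8 libraries, Trap1a was at 1.37, Cma1 at 2.53 and Cpa3 at 2.19 on the log2 scale. With eGFP control 3 as the 1 control they were -1.99, -0.70 and -0.44, and Trap1a was then called lower with NFAT5 (edgeR adjusted p = 0.042), as 1 of 7 members tested, where 20.6% of 16011 genes were called, 2471 higher and 823 lower. The adjusted p of Trap1a in this comparison was 0.703 with both controls.

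The second comparison sets CA-RIT NFAT1 against eGFP control. Over 10 libraries Gata2, Kit, Cpa3, Trap1a and Cma1 had log2 fold changes of 4.35 ± 1.74, 4.27 ± 1.65, 3.36 ± 1.70, 2.36 ± 1.61 and 1.97 ± 1.43 (SE). None of the 6 members tested was called (edgeR, adjusted p 0.943 to 0.999), beside 0 of 13783 genes (0%), of which 609 had an unadjusted p under 0.05. These values carry CA-RIT NFAT1 10: without it and eGFP control 7, Trap1a was at -0.85 ± 0.88, Cma1 at -0.81 ± 0.85 and Cpa3 at -0.25 ± 0.73, while Gata2 was at 0.87 ± 0.56 and Kit at 1.54 ± 0.85. Here too 0 of 6 members and 0 of 14473 genes (0%) were called by edgeR, with 932 genes at an unadjusted p under 0.05. DESeq2 again tested 1 member over 10 libraries, Hdc, and did not call it, beside 0.0837% of genes, and it called 0 of 6 over the 8, beside 0.434%. None of the 5 members had groups that did not overlap over 8 libraries, beside 21.6% of the 11778 genes. With eGFP control 6 as the 1 control of the 8, Trap1a was at 1.65, and with eGFP control 3 it was at -1.71. Hdc, at 0 reads in eGFP control 3, was then called higher in CA-RIT NFAT1 (edgeR adjusted p = 0.045), as 1 of 7 members where 21.3% of genes were called, from 13, 37 and 52 reads in CA-RIT NFAT1 libraries 2, 4 and 9.

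**Figure D5:**
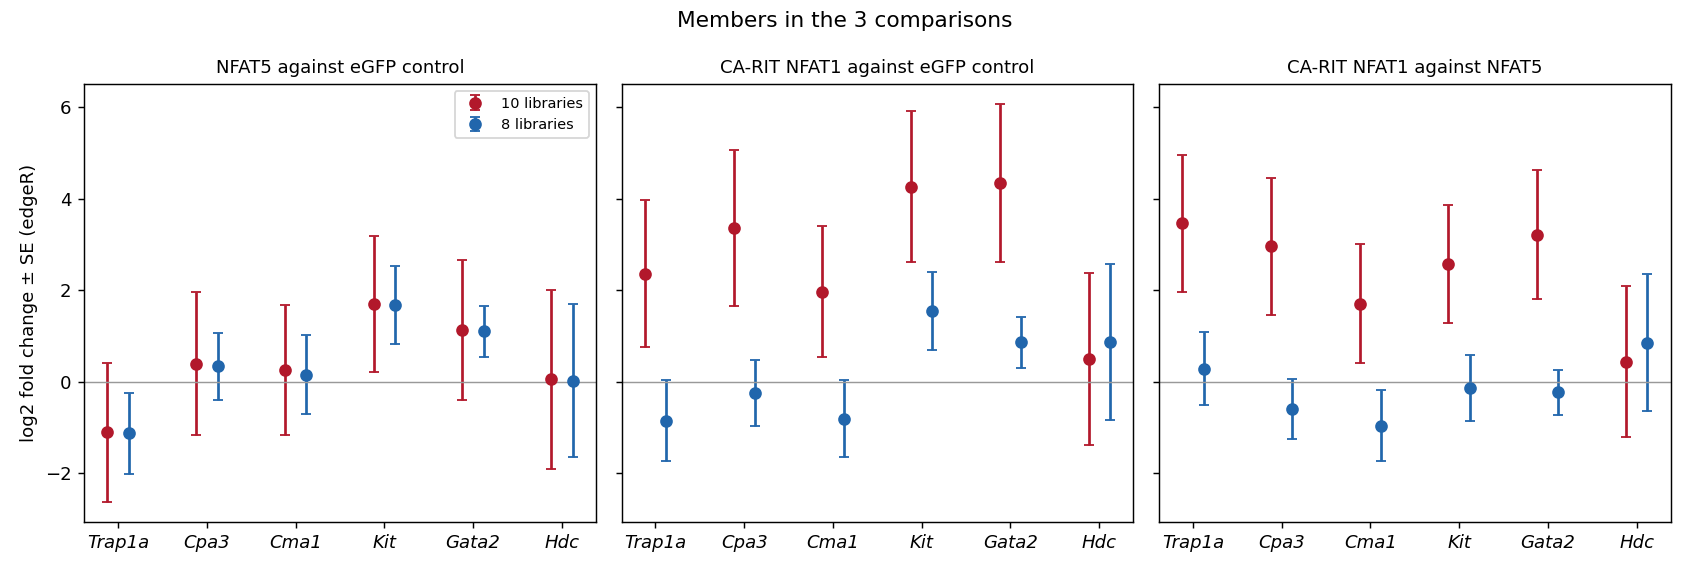
Log2 fold change ± SE (edgeR) of the 6 members tested in the 3 comparisons, over 10 libraries (red) and over the 8 libraries (blue). In the panels with CA-RIT NFAT1 the red points of 5 members lie between 1.71 and 4.35 and the blue points between -0.96 and 1.54.

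The last comparison sets CA-RIT NFAT1 against NFAT5 and uses no control library. Over 10 libraries Trap1a, Gata2, Cpa3, Kit and Cma1 had log2 fold changes of 3.47 ± 1.49, 3.22 ± 1.41, 2.97 ± 1.5, 2.57 ± 1.29 and 1.71 ± 1.30 (SE). None of the 6 members was called (edgeR adjusted p of 1.00 for each), beside 0 of 13783 genes (0%), of which 181 had an unadjusted p under 0.05. Over the 8 libraries the values were 0.28 ± 0.80 for Trap1a, -0.23 ± 0.49 for Gata2, -0.59 ± 0.65 for Cpa3, -0.13 ± 0.72 for Kit and -0.96 ± 0.77 for Cma1. Once more 0 of 6 members and 0 of 14473 genes (0%) were called by edgeR, with 163 genes at an unadjusted p under 0.05. DESeq2 did not call Hdc, the 1 member it tested over 10 libraries, beside 0.00761% of genes, and called 0 of 6 over the 8, beside 0.00694%. All 5 members overlapped between the groups over the 8 libraries, beside 6.37% of 11778 genes that did not. The first and second comparisons share the eGFP control libraries, and the last 2 share the CA-RIT NFAT1 libraries.

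Of the 30 other mast cell genes, 19 entered the tests over 10 libraries, and edgeR called 0 of them in each comparison. Their median log2 fold change was -0.84 for NFAT5 against eGFP control, 1.55 for CA-RIT NFAT1 against eGFP control and 2.64 for CA-RIT NFAT1 against NFAT5. The median of all genes tested was 0.16, 0.19 and -0.02. Single libraries set the sign of these medians. Without eGFP control 3 the median for NFAT5 against eGFP control was 1.17, and without CA-RIT NFAT1 10 the medians of the comparisons with CA-RIT NFAT1 were -0.22 against eGFP control and -0.0050 against NFAT5. With limma voom over 10 libraries the 3 medians were 0.42, 0.25 and -0.0015. Over the 8 libraries 19 were again tested and 0 called by edgeR, with medians of -0.89, -0.28 and -0.02 beside 0.08, 0.10 and 0.00 for all genes. With eGFP control 6 as the 1 control of the 8, the medians against eGFP control were 1.13 for NFAT5 and 0.80 for CA-RIT NFAT1. With eGFP control 3 as the 1 control, 6 of 21 genes were called for NFAT5 (2 higher and 4 lower, beside 20.6% of all genes) and 8 of 21 for CA-RIT NFAT1 (4 higher and 4 lower, beside 21.3%). Srgn had the lowest unadjusted p among the 6 named, with a log2 fold change over 8 libraries of -1.24 ± 0.38 for NFAT5 and -1.21 ± 0.38 for CA-RIT NFAT1 against eGFP control (edgeR adjusted p = 0.654 and 0.679). With RLE in place of TMM scaling over 10 libraries the medians of all genes were 0.13, 0.31 and 0.13, a shift of over 0.1 in the comparisons with CA-RIT NFAT1.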

How the data were processed

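The deposited estimated counts and TPM values were made by the authors for each transcript with Salmon 0.14.1, and GRCm38.p6 (mm10) is named, per the submitters' processing notes; the options used were not stated. Tumours were digested with collagenase and DNAse, and T cells were enriched on Ficoll and sorted before RNA extraction and a Clontech library, per the labels' protocols. Of 140919 transcripts, 139966 were matched to GENCODE M21, a release inferred from lengths (99.9% identical), and 953 were left out.

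Estimated counts were summed per gene and rounded (R 4.3.3; Python 3.11.15). Depth was 18.8 to 36.6 M reads in 9 libraries and 51112 in eGFP control 7. CPM scale by all matched reads; the deposited TPM served for comparisons between genes. Tests used edgeR 4.0.16 (quasi-likelihood, TMM, default low-count filter, all 10 libraries, 3 groups, threshold 0.05), and alternatives used DESeq2 1.42.0, limma 3.58.1 voom, RLE scaling, other filters, 8 libraries and each library left out. The fit was also run on simulated counts with a dispersion of 0.05. The spread estimated from the data was far larger. Its coefficient of variation, the square root of the dispersion, was 0.934 over 10 libraries and 0.725 over 8. The simulation therefore does not show what the fit could detect in these data. The level relative to CA-RIT NFAT1 10 is a median over the 5 members with reads there, since the other 5 had none. Named beside the members were the 6 other mast cell genes highest in CA-RIT NFAT1 10, the 5 genes nearest to Trap1a and to Cpa3, the 2 highest of each other list, and Cd8a and Trbc2. A few other genes at 0 or at the ends of a range, Gata1 and Il3ra among them, were named after their values were seen. Members and lists were chosen with earlier results of these data known.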

Additional observations from a re-analysis of the deposited data

Results flagged for a closer look

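In the CA-RIT NFAT1 group of 4 libraries, library 10 stood apart for each of the 5 members read in it, by the gap to the nearest library divided by the range of the group. This share was 0.9743 for Trap1a, 0.9765 for Cpa3, 0.9437 for Kit, 0.9776 for Gata2 and 0.9691 for Cma1, each above the 95% critical value of Dixon's test. CA-RIT NFAT1 10 had been set apart for its high Trap1a and its few T cell reads, and the 5 genes are those read in it, so these shares restate that choice and the 5% of groups that chance would pass does not apply to them. CA-RIT NFAT1 10 had 331, 1859, 505, 1044 and 1352 CPM of these genes in that order, and 0.0308 CPM of Cd8a. Ms4a2 reached a share of 1 in CA-RIT NFAT1 4, from 4 reads against 0 in the other 3 libraries of the group.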

How the results depend on the processing

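No paired analysis was possible because the groups share no replicate number. Upper-quartile scaling could not be fitted, since the upper quartile of eGFP control 7 is zero. Against 0 genes called by edgeR, the other tools called few: over 10 libraries DESeq2 called 7 lower for NFAT5 and 11 lower for CA-RIT NFAT1 against eGFP control and 1 higher for CA-RIT NFAT1 against NFAT5, and limma voom called 1 and 2 lower against eGFP control. Over the 8 libraries DESeq2 called 73 higher and 29 lower for NFAT5, 44 higher and 16 lower for CA-RIT NFAT1 against eGFP control, and 1 lower for CA-RIT NFAT1 against NFAT5. Leaving out a library in turn gave 0 to 496 higher and 0 to 10 lower for NFAT5, and 0 to 602 higher and 0 to 37 lower for CA-RIT NFAT1 against eGFP control. Over the 8 libraries the ranges were 0 to 2471 and 0 to 823, and 0 to 2550 and 0 to 860, with 0 to 1 members called in each, and every upper end was the fit without eGFP control 6. The fits over 8 libraries with other tools or with a library left out were chosen after seeing the data; where a fit leaves 1 eGFP control, its spread is taken from the other groups.

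The members' fold changes, none called over 10 libraries, turned sign as follows (log2). Without eGFP control 7 and CA-RIT NFAT1 10, CA-RIT NFAT1 against eGFP control gave -0.81 for Cma1, -0.25 for Cpa3 and -0.85 for Trap1a, and against NFAT5 -0.96 for Cma1, -0.59 for Cpa3, -0.23 for Gata2 and -0.13 for Kit. With limma voom CA-RIT NFAT1 against NFAT5 gave -0.84 for Cma1, -0.95 for Cpa3, -0.38 for Gata2, -0.071 for Kit and -0.097 for Trap1a (-0.17 over 8 libraries), and NFAT5 against eGFP control gave 0.37 for Trap1a and -0.019 for Hdc. Hdc was also at -0.014 with RLE scaling and -2.40 with DESeq2, and at -1.94 with DESeq2 for CA-RIT NFAT1 against eGFP control. The cause was not tested.

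With 1 library left out, NFAT5 against eGFP control ranged from -0.39 to 2.59 for Cma1 (over 8 libraries -0.70 to 2.53), -0.26 to 2.23 for Cpa3 (-0.44 to 2.19), -1.90 to 1.38 for Trap1a (-1.99 to 1.37) and -0.92 to 7.04 for Hdc (-0.96 to 7.14), the ends being the fits without eGFP control 3 and without eGFP control 6. CA-RIT NFAT1 against eGFP control ranged from -0.73 to 4.30 for Cma1 (-1.65 to 1.57), -0.19 to 5.19 for Cpa3 (-1.02 to 1.59), -0.79 to 4.85 for Trap1a (-1.71 to 1.65) and -0.49 to 7.48 for Hdc (-0.11 to 7.99). The fold changes of Hdc above 7 set it against controls at 0 reads and depend on the prior count. CA-RIT NFAT1 against NFAT5 ranged from -0.94 to 2.26 for Cma1, -0.57 to 3.32 for Cpa3, -0.22 to 3.56 for Gata2 (-0.72 to 0.029), -0.18 to 0.86 for Hdc and -0.12 to 2.97 for Kit (-0.75 to 0.34), and from -0.18 to 0.67 for Trap1a over the 8 libraries. The levels relative to CA-RIT NFAT1 10 moved by less than 1 SD of their group in 26 of the alternatives tried (TMM scaling, TPM, Trap1a alone, a minimum of 100 reads and 1 library left out). The exception was Trap1a alone in eGFP control without library 7, at 4.17% against 2.41%, which put that group above NFAT5 (2.12%) and CA-RIT NFAT1 (2.64%); the alternatives for this pair of controls were chosen after seeing the data. Of the members' fold changes, 51 alternative fold changes of members had the other sign, 430 kept their sign with no call, and 2 became calls. At the depth of eGFP control 7, 0 reads allow up to 58.7 CPM, so it limits every comparison with eGFP control.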

Other observations

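Siglecf, a sialic acid receptor gene on the list of other mast cell genes, was singled out after its values were seen, because it was at 0 reads in CA-RIT NFAT1 10 and had the lowest unadjusted p of that list between CA-RIT NFAT1 and NFAT5. It had 14.4, 7.46 and 13.3 CPM in CA-RIT NFAT1 libraries 2, 4 and 9 and 1.09, 0 and 0 CPM in NFAT5 libraries 1, 5 and 8, while eGFP control libraries 3, 6 and 7 had 0, 3.16 and 0 CPM. The 3 CA-RIT NFAT1 T cell libraries thus lay above all NFAT5 libraries. Over the 8 libraries, 6.37% of 11778 genes did not overlap between these groups, in either direction. The log2 fold change of CA-RIT NFAT1 against NFAT5 over the 8 libraries was 4.98 ± 2.11 (SE), and Siglecf passed the threshold neither by edgeR (unadjusted p = 0.045, adjusted p = 1.00), nor by DESeq2 (unadjusted p = 0.0086, adjusted p = 1.00) nor by limma voom (unadjusted p = 0.000224, adjusted p = 0.463). Over 10 libraries it was 4.59 ± 2.55 (edgeR, adjusted p = 1.00). The fitted fold rests on NFAT5 libraries with 27, 0 and 0 reads and depends on the prior count.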
